A study of Mus musculus with 16 samples.

Results

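The expression of 8 genes that mark or build plasmacytoid dendritic cells (pDCs) was followed in the bone marrow of leukemic mice with or without host IL-6. The genes were Siglech, Tcf4, Spib, Bcl11a, Runx2, Ly6d, Klk1 and Lair1, found by their symbols among the 16612 genes listed in either of the tables of normalized counts. Of these, 7 were listed for the stroma, all but Klk1, and 6 for the tumor cells, all but Siglech and Klk1. Klk1, and Siglech in tumor cells, were therefore not analysed here, and no value of 0 can be given for them.

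The hosts were untreated C57BL/6J mice, 6 to 8 weeks old, that were either wild type (WT) or IL-6 KO. Every mouse in every group had received 500000 BCR-ABL+, Arf-/- B-ALL cells, a line of B-cell acute lymphoblastic leukemia that carries mCherry, by the tail vein. At day 8 the marrow was sorted into mCherry+ leukemia cells (tumor) and mCherry- cells (stroma), which gave 4 groups of 4 libraries: WT stroma, IL-6 KO stroma, WT tumor and IL-6 KO tumor. The tumor cells had the same genotype in both kinds of host, and the stroma was a mixture of the live marrow cells left after red cell lysis, with no gate on pDCs. Whether each library came from a separate mouse is not stated by number in the labels, so p-values measure the spread between these libraries, which may in part be technical.

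pDCs are the dendritic cells that release type I interferon when Toll-like receptors in their endosomes meet nucleic acids of viruses. Their identity rests on the E protein TCF4 (E2-2), a helix-loop-helix factor that binds E-box motifs and acts together with BCL11A and SPIB, while RUNX2 helps the mature cells to leave the marrow. Several of these genes are not particular to pDCs: Tcf4, Bcl11a, Spib and Ly6d are also used by B-lineage cells, from which this leukemia derives, and Runx2 is also the master regulator of bone-forming cells. Siglech encodes a surface lectin that is the most selective pDC marker of the 8.

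The promoters of Siglech and Bcl11a are shown because these were the members whose genotypes did not overlap in a compartment (stroma for Siglech, tumor cells for Bcl11a). Each is the 250 bases before the RefSeq start on GRCm38.p6, with every match to the E-box CANNTG in capitals. Siglech lies on chr7:55768178-55778925, plus strand, and Bcl11a on chr11:24078056-24174123, plus strand, in GENCODE vM21, whose transcripts of Bcl11a in part start upstream of the window shown.
Siglech promoter, chr7:55767934-55768183: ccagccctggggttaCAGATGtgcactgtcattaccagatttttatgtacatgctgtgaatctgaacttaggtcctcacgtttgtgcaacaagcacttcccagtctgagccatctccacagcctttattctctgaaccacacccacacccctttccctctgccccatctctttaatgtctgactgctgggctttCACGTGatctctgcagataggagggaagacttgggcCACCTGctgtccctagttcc
Bcl11a promoter, chr11:24080445-24080694: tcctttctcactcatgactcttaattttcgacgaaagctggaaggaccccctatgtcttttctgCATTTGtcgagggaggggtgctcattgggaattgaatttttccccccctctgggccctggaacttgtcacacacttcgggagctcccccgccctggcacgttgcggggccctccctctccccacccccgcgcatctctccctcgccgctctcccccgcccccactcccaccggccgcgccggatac
The Siglech window holds 3 E-boxes, which begin 235, 56 and 20 bases before the start, and the Bcl11a window holds 1, which begins 186 bases before it. Neither window holds GAGGAA, a core bound by the SPIB family, on either strand. CANNTG, which reads the same on both strands as a pattern, was in 66.0% and GAGGAA in 23.1% of 27025 promoters of the same length, so a match is a description of the letters and not a bound site. Of the 8 members, 6 had a promoter in the table used, and Tcf4 and Ly6d had none.

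The remaining members were also protein-coding genes in GENCODE vM21. Spib lies on chr7:44525993-44532071, Lair1 on chr7:4003402-4063204, Runx2 on chr17:44495987-44814797 and Ly6d on chr15:74762056-74763620, all on the minus strand, and Klk1 on chr7:44225360-44229618, on the plus strand. Tcf4 lies on chromosome 18. Bcl11a and Runx2 share exonic sequence with a gene on the opposite strand, 4930538E20Rik and Runx2os1. Runx2os1 was listed in the stroma table, and the library kit keeps strand, but how the quantification used strand is not given in the sources used here.

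The stroma libraries differed in their makeup beyond the members. Rn7s1, a signal recognition particle RNA, held 19.2% to 50.1% of the summed normalized counts in WT stroma, 71.5% to 79.0% in replicates 1 to 3 of the IL-6 KO stroma and 10.9% in replicate 4, where the transcript CT010467.1 held 61.5%. In tumor cells Rn7s1 held 3.40% to 6.24%. The depth of each library is unknown. Il6 was not among the genes analysed here, so the genotype labels have no check from the deleted gene. The labelled cell types could be checked in part. In tumor cells Cd79a, a chain of the B-cell receptor, had 22205 ± 845 normalized counts in WT and 24753 ± 1669.7 in IL-6 KO hosts (SD, n = 4). In the stroma the bone gene Sp7 was not analysed, and Col1a1 was at 217 ± 142 in WT and 462 ± 705 in IL-6 KO (SD, n = 4), with erythroid markers summing to 52693 to 222499, so the term stroma is used for mCherry- marrow and not for mesenchymal cells.

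Siglech, the surface lectin, was lower in the stroma of IL-6 KO hosts in every library, but the difference did not pass the test across all genes. WT stroma 1 to 4 had 62.5, 53.4, 55.0 and 82.1 normalized counts. IL-6 KO stroma 1 to 4 had 42.0, 14.5, 3.48 and 20.5. The groups did not overlap, and the highest IL-6 KO library was below the lowest WT library. The means were 63.3 ± 13.2 in WT and 20.1 ± 16.2 in IL-6 KO (SD, n = 4), and the log2 fold change was -1.99 (SE 0.74), or 3.98-fold lower on the scale of log2(normalized count + 1). The unadjusted p was 0.0190, and limma's p adjusted by Benjamini-Hochberg over 12202 genes was 0.461. The exact two-sided permutation test over the libraries gave p = 0.0286, the smallest that 4 libraries against 4 allow. Across all stroma genes tested, 9.15% had an unadjusted p under 0.05, 5.79% had genotypes that did not overlap (3.25% with IL-6 KO lower and 2.54% with IL-6 KO higher), and Siglech was the 500th gene of 12202 by p.

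**Figure D1:**
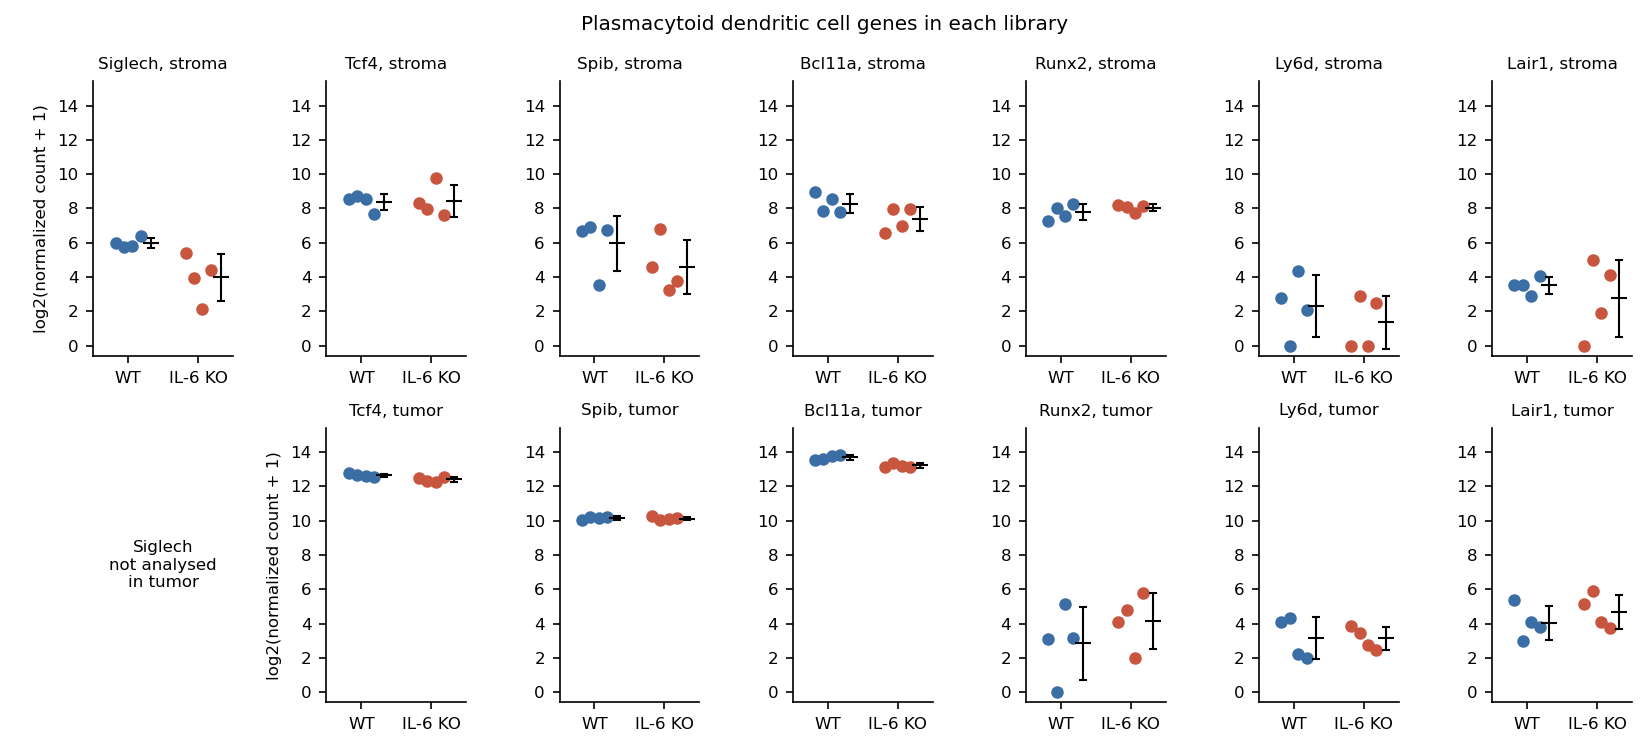
log2(normalized count + 1) of the members (vertical axes) in each library, WT in blue and IL-6 KO in red, in stroma (upper row) and tumor cells (lower row); points are libraries, and the black bar beside them is the mean ± SD of 4. Siglech in stroma, at 53.4 to 82.1 normalized counts in WT and 3.48 to 42.0 in IL-6 KO, and Bcl11a in tumor cells, at 12058 to 14413 and 9005 to 10721, are the panels without overlap.

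In bulk samples like these, fewer cells of a type and less RNA per cell cannot be told apart, so lower Siglech may be either. Other values were read beside it in the stroma. Rn7s1 was higher in 3 of the 4 IL-6 KO libraries, as given above. Markers of the B lineage summed to 5730 to 9453 normalized counts in WT and 3332 to 6154 in IL-6 KO, and those of conventional dendritic cells to 5484 to 8002 and 4062 to 5529. Both sums were mostly Cd24a, a gene of both lists, which made up 78.9% and 87.6% of them in WT. Without Cd24a, a step chosen after the values were seen, the B-lineage sums were 1010.2 to 2037 in WT and 742 to 1844 in IL-6 KO, and the conventional dendritic sums 586 to 1196 and 618 to 1664, which overlapped. Markers of mature neutrophils summed to 7865 to 15206 in WT and 8196 to 33821 in IL-6 KO. These sums did not follow Siglech by library: IL-6 KO stroma 3, with Siglech at 3.48, had 8196. IL-6 KO stroma 1, with Siglech at 42.0, had 33821. Erythroid markers summed to 125674 to 182566 in WT, and to 59430, 131402, 222499 and 52693 in IL-6 KO stroma 1 to 4. The part of these in the Siglech difference was not tested. Without IL-6 KO stroma 4, the library rich in CT010467.1, the log2 fold change of Siglech was -2.14 (unadjusted p = 0.0212, adjusted p = 0.383, limma), and without IL-6 KO stroma 3, which had the lowest Siglech, it was -1.38 (unadjusted p = 0.0436, adjusted p = 0.359, limma). Without WT stroma 4, which had the highest, it was -1.86 and its unadjusted p was 0.0549 (adjusted p = 0.679, limma).

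Tcf4, the E protein at the head of the pDC program, did not separate the genotypes in the stroma. WT stroma 1 to 4 had 379, 430, 368 and 202 normalized counts, and IL-6 KO stroma 1 to 4 had 315, 248, 857 and 196. IL-6 KO stroma 3 was the highest of the 8 libraries and had the least Siglech. The log2 fold change was 0.03 (SE 0.47, adjusted p = 0.993, limma), and its sign turned with the scaling: it was -0.05 after quantile normalization. Without IL-6 KO stroma 3 it was -0.42 (adjusted p = 0.684, limma).

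In tumor cells Tcf4 was lower in most IL-6 KO libraries without passing the test. WT tumor 1 to 4 had 6874, 6484, 6193 and 5862 normalized counts, and IL-6 KO tumor 1 to 4 had 5841, 5140.2, 4890.2 and 5902. All IL-6 KO libraries but replicate 4 were below the lowest WT library. The log2 fold change was -0.23 (SE 0.08), with an unadjusted p of 0.0211 and an adjusted p of 0.0814 (limma, 14493 genes), and 35.1% of the tumor genes tested had an unadjusted p under 0.05. After quantile normalization it was -0.29 and passed the threshold (adjusted p = 0.0419, limma).

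Bcl11a, a zinc-finger repressor needed by both pDCs and early B cells, fell in the tumor cells of IL-6 KO hosts, and it was the 1 member to pass the test in either compartment. WT tumor 1 to 4 had 12058, 12170.4, 14041 and 14413 normalized counts. IL-6 KO tumor 1 to 4 had 9021, 10721, 9382 and 9005. The groups did not overlap, and the gap between them was wider than either group's SD (13170 ± 1230 in WT and 9533 ± 811 in IL-6 KO, SD, n = 4). The log2 fold change was -0.47 (SE 0.08), or 1.38-fold lower, with an adjusted p of 0.00680 (limma, range 7.41e-04 to 0.0260 over 17 settings), and the exact permutation test gave p = 0.0286. Calls were common in this compartment: 19.8% of the 14493 tumor genes passed, 9.16% as lower in IL-6 KO, and 25.6% did not overlap. Bcl11a ranked 590th by p.

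Other lineage markers were read in the same tumor libraries. The B-lineage markers summed to 163928 to 167927 normalized counts in WT and 174998 to 182083 in IL-6 KO, and without Vpreb1 and Vpreb2, left out after the values were seen, to 139368 to 140797 and 136807 to 144095. Of these 16 markers 9 were higher and 7 lower, with a median log2 fold change of 0.07. Sums of mature neutrophil markers were 4707 to 5320 in WT and 7230 to 17763 in IL-6 KO, and 9 of 12 of these markers passed as higher, beside 10.6% of all tumor genes. The part of these in the Bcl11a difference was not tested.

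In the stroma Bcl11a pointed the same way without passing. WT stroma 1 to 4 had 488, 226, 377 and 224 normalized counts and IL-6 KO stroma 1 to 4 had 95.5, 249, 124 and 252. IL-6 KO stroma 1 and 3 lay below all WT libraries, and the other two lay among them. The log2 fold change was -0.91 (SE 0.44, unadjusted p = 0.0617, adjusted p = 0.558, limma).

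Spib, an ETS factor of pDCs and B cells, split the stroma libraries into high and low ones in both genotypes. WT stroma 1 to 4 had 100.2, 118, 10.7 and 106 normalized counts. IL-6 KO stroma 1 to 4 had 22.6, 109, 8.48 and 12.8. WT stroma 3 was thus among the low libraries and IL-6 KO stroma 2 among the high ones, and the groups overlapped. The log2 fold change was -1.37 (SE 0.93, adjusted p = 0.677, limma). It was -2.17 without WT stroma 3 and -2.10 without IL-6 KO stroma 2 (adjusted p = 0.517 and 0.574, limma).

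In tumor cells Spib was nearly level. WT tumor 1 to 4 had 1029, 1202, 1128 and 1199.8 normalized counts and IL-6 KO tumor 1 to 4 had 1225, 1035, 1074 and 1129. Its coefficient of variation was 7.12% in WT and 7.35% in IL-6 KO, and the genotypes interleaved. The log2 fold change was -0.03 (SE 0.09, adjusted p = 0.835, limma).

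Runx2 showed the reverse distribution between the compartments, with low values in tumor cells. In the stroma, WT libraries 1 to 4 had 155, 264, 188 and 305 normalized counts and IL-6 KO libraries 297, 268, 214 and 285. All IL-6 KO values lay inside the WT range, and the log2 fold change was 0.26 (SE 0.35, adjusted p = 0.854, limma). In tumor cells, WT libraries 1 to 4 had 7.53, 0, 34.2 and 7.79 and IL-6 KO libraries 16.2, 26.3, 2.91 and 53.7. The tumor log2 fold change of 1.31 (SE 1.10, adjusted p = 0.427, limma) rested on these small values, and WT tumor 2 was listed at 0.

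Lair1, an inhibitory receptor for collagen, was low in both compartments. In the stroma, WT libraries 1 to 4 had 10.6, 10.7, 6.37 and 15.9 normalized counts and IL-6 KO libraries 0, 31.2, 2.71 and 16.6, so IL-6 KO stroma lay both above and below all WT libraries. Its log2 fold change of -0.75 (SE 1.22, adjusted p = 0.885, limma) became 0.17 without IL-6 KO stroma 1, where the gene was listed at 0. In tumor cells, WT libraries had 40.0, 6.85, 16.1 and 12.8 and IL-6 KO libraries 34.1, 57.7, 15.7 and 12.1, and the log2 fold change was 0.64 (SE 0.61, adjusted p = 0.485, limma).

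Ly6d, a surface protein that marks B-biased lymphoid progenitors and the pDCs that descend from them, was near 0 in both compartments, by a mean normalized count of 10 or less over the 8 libraries. The compartments were normalized separately, so this cutoff is not the same level in both. As a ratio to the library median, WT Ly6d was at 0.081 in stroma and 0.011 in tumor cells. Runx2 at 0.013 and Lair1 at 0.020 in WT tumor cells were about as low as Ly6d there, though above the cutoff. WT stroma 1 to 4 had 5.93, 0, 19.2 and 3.27 and IL-6 KO stroma 1 to 4 had 0, 6.57, 0 and 4.56, a mean of 4.95 over 8 libraries, 3 of them listed at 0. WT tumor 1 to 4 had 16.4, 18.9, 3.73 and 3.01 and IL-6 KO tumor 1 to 4 had 13.6, 10.1, 5.81 and 4.38, a mean of 9.49. It was left out of the tests by that filter. With no filter its log2 fold change was -0.96 in stroma and -0.03 in tumor cells (SE 1.25 and 0.66, adjusted p = 0.839 and 0.978, limma). An entry of 0 is not proof of absence, as the depth is unknown. Of ribosomal and proteasome genes, 1 of 117 in the stroma and 2 of 120 in tumor cells had a library at 0. That count does not show how often a gene as low as Ly6d is missed.

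**Figure D2:**
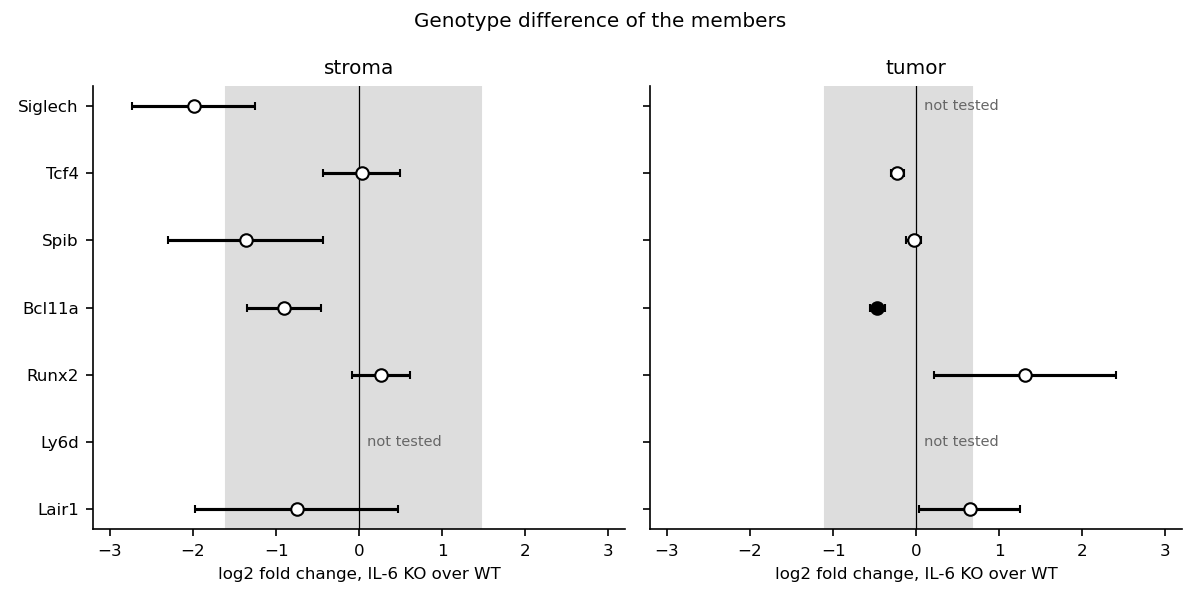
log2 fold change of each member tested, IL-6 KO over WT (horizontal axis), in stroma and in tumor cells, with SE bars; filled points have an adjusted p under 0.05, and the grey band runs from the 5th to the 95th percentile of all genes tested. Bcl11a in tumor cells at -0.47 is the filled point, and Siglech in stroma at -1.99 lies outside the stroma band, which spans -1.60 to 1.47.

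Counted together, 6 members were tested in the stroma, of which 4 were lower and 2 higher in IL-6 KO. By limma 0 passed, beside 0.0082% of all stroma genes, and 1 had an unadjusted p under 0.05, beside 9.15%. The median log2 fold change of the 6 was -0.83, beside -0.01 over all genes, of which 50.6% were lower. That median lay between Bcl11a at -0.91 and Lair1 at -0.75, and Lair1 turned to 0.17 without IL-6 KO stroma 1. In tumor cells 5 were tested, 3 lower and 2 higher, with a median of -0.03 beside -0.01, and 1 passed, beside 19.8% of all tumor genes. Whether the genotype effect differed between the compartments was tested for the 5 members measured in both. The tumor minus stroma difference of log2 fold changes was 0.44 for Bcl11a (SE 0.45), 1.34 for Spib (SE 0.94), 1.05 for Runx2 (SE 1.15), -0.25 for Tcf4 (SE 0.47) and 1.40 for Lair1 (SE 1.36). The adjusted p-values ran from 0.673 to 0.895 (limma fits combined), 0 of the 5 had an unadjusted p under 0.05 beside 10.2% of 10887 genes, and 0.00919% of these genes passed. The lower Bcl11a in tumor cells was thus not shown to differ from its value in the stroma. The combined SEs and p-values took stroma and tumor libraries as independent. The marrow was sorted into both kinds of cells, so libraries of the same number may share a mouse. Neutrophil sums in IL-6 KO 1 to 4 were 33821, 32765, 8196 and 28634 in stroma and 17064, 17763, 7230 and 15586 in tumor cells. Replicate 3 was the lowest in both. In WT 1 to 4 they were 7865, 11575, 13522 and 15206 in stroma and 4772, 5051, 4707 and 5320 in tumor cells. Whether stroma and tumor libraries came from the same mice was not tested.

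Levels of different genes were compared per kilobase of the longest transcript. In WT stroma the order was Bcl11a, Tcf4, Runx2, Spib, Siglech, Ly6d and Lair1, from 54.9 ± 21.4 to 1.60 ± 0.57 normalized counts per kilobase (SD, n = 4). All 6 pairs of neighbours in that order overlapped, so the order holds little beyond its ends. In IL-6 KO stroma Tcf4 led with 47.1 ± 35.7 and Siglech stood at 8.75 ± 7.03, and again all 6 neighbouring pairs overlapped. With the length of all exons joined, the mean over both genotypes put Runx2 at the head of the stroma and Tcf4 below Spib and Bcl11a.

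In WT tumor cells the order was Bcl11a with 2199 ± 205 normalized counts per kilobase, Tcf4 with 741 ± 50.2, Spib with 409 ± 29.1, Ly6d with 14.1 ± 11.2, Lair1 with 2.77 ± 2.13 and Runx2 with 1.91 ± 2.32 (SD, n = 4). The top 3 did not overlap each other or Ly6d, and the last 2 neighbouring pairs overlapped. IL-6 KO tumor cells kept this order, although joined exon lengths exchanged Tcf4 and Spib.

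**Figure D3:**
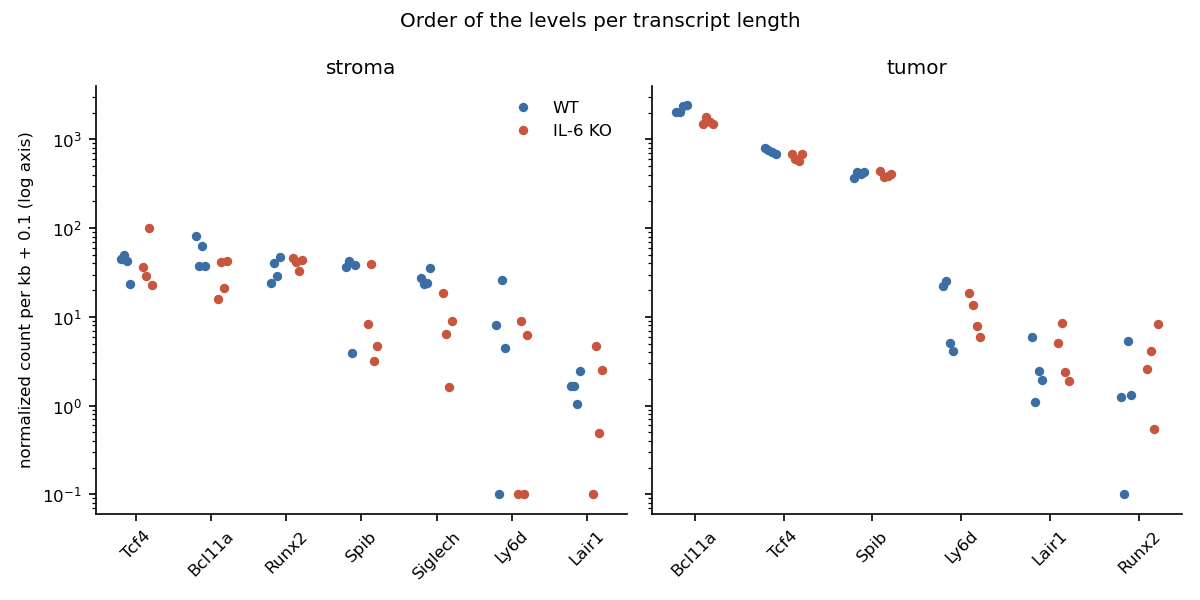
Normalized counts per kilobase of the longest transcript, plus 0.1, on a log axis, for each member and library, ordered by the mean over 8 libraries. In tumor cells Bcl11a, Tcf4 and Spib stand apart from Ly6d, Lair1 and Runx2, while in the stroma neighbouring members overlap.

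The tables were normalized separately, so stroma and tumor were set side by side only as ratios to each library's median over 11812 shared genes, with no test. In WT, Bcl11a was at 3.81 times that median in stroma and 14.1 times in tumor cells, Tcf4 at 4.00 and 6.82, and Spib at 0.989 and 1.22. Runx2 went the other way, from 2.67 in stroma to 0.013 in tumor cells, and Lair1 from 0.128 to 0.020. Siglech was at 0.741 in WT stroma and 0.230 in IL-6 KO stroma.

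Siglech and the factors did not vary as 1 block across the stroma. Over the 8 libraries, Siglech correlated by Pearson's r at 0.50 with Spib, 0.45 with Bcl11a, 0.30 with Ly6d, 0.10 with Lair1, -0.01 with Runx2 and -0.51 with Tcf4. The genes most like it were Mtcp1, Abi1 and Gm37416, with r of 0.960, 0.931 and 0.927 among 8077 genes. In tumor cells the genes most like Tcf4 were Higd1a, Cab39l and Carf, with r of 0.957, 0.949 and 0.941 among 11237 genes, while Bcl11a reached 0.46. These are descriptions over 8 libraries that share the genotype groups.

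Other genes used to recognise pDCs were read from a list of 24, of which 17 were listed and 15 tested in the stroma. None of the 15 passed by limma, beside 0.0082% of all stroma genes, and 0 had an unadjusted p under 0.05, beside 9.15%. Of the 15, 9 were lower, beside 50.6% of all stroma genes, and 6 higher, with a median log2 fold change of -0.22. The closest by p were Cobll1 at 31.2 ± 24.8 in WT and 3.98 ± 3.37 in IL-6 KO (log2 fold change -2.51, SE 1.19, adjusted p = 0.554, limma) and Atp1b1 at 206 ± 89.8 and 100.3 ± 28.6 (-0.95, SE 0.46, adjusted p = 0.556, limma). Bst2, the surface antigen used to sort mouse pDCs, was at 48.6 ± 34.9 and 22.6 ± 4.83, and Irf8, a factor needed by dendritic cells, at 436 ± 141 and 306 ± 142 (SD, n = 4 each). Their log2 fold changes were -0.78 and -0.55 (adjusted p = 0.759 and 0.712, limma). The 6 that were higher included Plac8 at 111 ± 41.7 and 193 ± 64.6 (0.82, SE 0.45, adjusted p = 0.601, limma) and Cd300c at 10.6 ± 7.52 and 24.8 ± 11.5 (1.66, SE 1.05, adjusted p = 0.650, limma). Tlr7 and Tlr9, the endosomal receptors for RNA and DNA, were near 0 in the stroma, and Ccr9, a homing receptor of pDCs, was not analysed.

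In tumor cells 6 of the 15 tested genes of this list passed, beside 19.8% of all genes, in both directions. Plac8 fell from 10300 ± 356 in WT to 6554 ± 432 in IL-6 KO (log2 fold change -0.65, SE 0.06, adjusted p = 6.61e-04, limma). Tlr7 fell from 161 ± 51.0 to 70.8 ± 5.66 (-1.12, SE 0.24, adjusted p = 0.0117, limma), and Irf7, the interferon-inducing factor downstream of it, from 161 ± 39.1 to 83.0 ± 5.84 (-0.92, SE 0.20, adjusted p = 0.0128, limma). Rpgrip1 was the other to fall, with a log2 fold change of -1.95. Irf8 rose from 4035 ± 273 to 5269 ± 445 (0.38, SE 0.08, adjusted p = 0.0115, limma), and Ly6c2, which is also a monocyte gene, from 68.4 ± 9.87 to 311 ± 119 (2.08, SE 0.28, adjusted p = 0.00219, limma). In the same libraries 5 of 12 monocyte and macrophage markers passed as higher, beside 10.6% of all tumor genes. Their sums were 971 to 1374 in WT and 1253 to 2780 in IL-6 KO, and the part of these markers in the Ly6c2 difference was not tested.

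The E protein network, the partners and inhibitors of TCF4, held 11 genes that were all tested in both compartments. In the stroma none passed by limma, beside 0.0082% of all stroma genes, with a median log2 fold change of 0.05. The lowest p belonged to Id1, an inhibitor of E proteins, at 48.0 to 131 in WT and 106.8 to 399 in IL-6 KO (log2 fold change 1.21, SE 0.50, adjusted p = 0.501, limma), and to the helix-loop-helix factor Tal1 (-1.13, SE 0.48, adjusted p = 0.507, limma). Id2, the inhibitor that opposes TCF4 in conventional dendritic cells, was at 40.0 ± 13.1 and 41.1 ± 11.6 (SD, n = 4). Of the 11 genes, 2 passed in tumor cells, beside 19.8% of all tumor genes, so the share was close to that of all genes. Tcf3, the E protein of B cells, rose from 18210 ± 945 to 23466 ± 1846 (0.36, SE 0.07, adjusted p = 0.00835, limma) and Lyl1 from 4486 ± 173 to 6277 ± 789 (0.48, SE 0.09, adjusted p = 0.00701, limma). Tcf4 itself was at a log2 fold change of -0.23 in the same libraries, as given above.

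The endosomal Toll-like receptor and interferon machinery counted 20 genes. In the stroma 17 were tested and 0 passed by limma, while 2 had an unadjusted p under 0.05, beside 9.15% of all stroma genes: the adaptor Myd88 at 85.7 ± 47.3 in WT and 244 ± 73.6 in IL-6 KO (log2 fold change 1.58, SE 0.45, adjusted p = 0.370, limma), and Tyrobp, the DAP12 adaptor through which Siglec-H signals, at 133 ± 59.9 and 288 ± 100.4 (1.13, SE 0.44, adjusted p = 0.471, limma). Tyrobp is also abundant in neutrophils and monocytes, and the monocyte sums in stroma were 503 to 1151 in WT and 849 to 2026 in IL-6 KO. In tumor cells 3 of 19 rose, namely Syk (log2 fold change 0.30), Tyrobp (1.67) and Myd88 (0.40), and Tlr7 and Irf7 fell, beside 10.6% of all tumor genes that passed as higher and 9.16% as lower. Tyrobp and Siglech thus had fold changes of opposite sign in the stroma, neither of which passed.

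**Figure D4:**
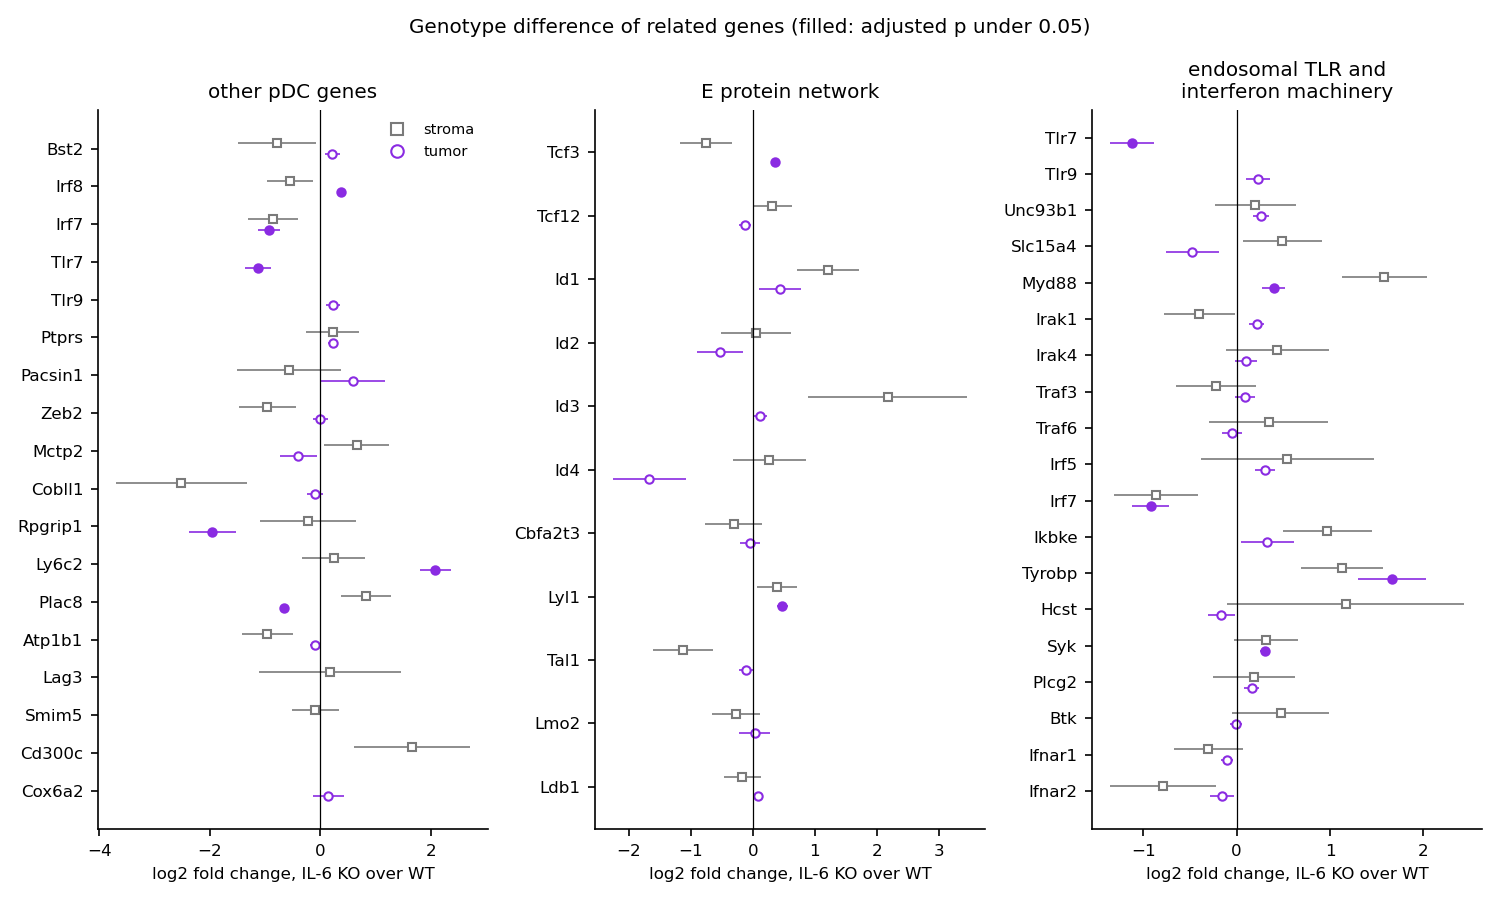
log2 fold change, IL-6 KO over WT (horizontal axes), of each gene tested in the list of other pDC genes, the E protein network and the endosomal Toll-like receptor and interferon machinery; squares are stroma, circles tumor cells, filled symbols an adjusted p under 0.05 and bars the SE. Filled symbols are tumor circles alone, among them Plac8 at -0.65, Irf8 at 0.38 and Tcf3 at 0.36.

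The markers of the other cells in the marrow were counted in the same way. In the stroma 0 genes of these lists passed by limma, beside 0.0082% of all stroma genes. At an unadjusted p under 0.05, where 9.15% of all stroma genes stood, the B lineage had 1 of 15, conventional dendritic cells 0 of 11, monocytes and macrophages 1 of 9, mature neutrophils 4 of 12, erythroid cells 2 of 11, T and NK cells 1 of 2, osteolineage and mesenchymal cells 0 of 4 and plasma cells 1 of 5. Their medians ran from -1.31 for T and NK cells to 0.74 for neutrophils. The T and NK median rested on 2 of 12 genes, Cd4 (log2 fold change -2.56) and Lck (-0.07). Cd4 was low, at 19.4 ± 17.2 in WT and 2.23 ± 1.79 in IL-6 KO (SD, n = 4). In tumor cells, where 10.6% of all genes passed as higher and 9.16% as lower, the B lineage had 2 genes higher, Vpreb1 and Vpreb2 of the surrogate light chain (log2 fold change 0.53 and 0.49), and 3 lower, Ebf1, Cd24a and Cd22, out of 16, while Cd79a was at 0.15 (adjusted p = 0.119, limma). Conventional dendritic cells had 2 of 8 lower, Cd24a and Cd74, osteolineage and mesenchymal cells had Alpl higher and Col1a2 lower out of 8, and erythroid, T and NK and plasma cell lists had 0 called of 7, 6 and 6. Alpl alone, at 13743 ± 386 in WT tumor cells (SD, n = 4), made up 96.8% of the WT sum of its list. Sp7, Bglap, Ibsp and Dmp1 of that list were not analysed in tumor cells. The part of bone-forming cells in the Alpl rise was not tested.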

How the data were processed

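RNA from sorted mCherry+ and mCherry- marrow was sequenced by the authors as single-end 75-nt reads from rRNA-depleted, directional libraries. The authors estimated transcript abundance with salmon 1.3.0 against mm10, correcting for GC and sequence bias, and normalized the values with DESeq2 1.28.1 separately for stroma and tumor. The transcript annotation is not given in the sources used here. The deposited values are a normalized signal on the scale of counts and not whole reads, which could not be recovered, so depth is unknown and no counting interval was computed. The deposited results of the authors' own comparison (mean, fold change, statistic and p-values) were not used.

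Groups came from the sample labels. Within each table, log2(normalized count + 1) was tested with limma 3.58.1 in R 4.3.3 (lmFit, eBayes with trend, genotype as the single term) over genes with a mean normalized count over 10, with two-sided p-values adjusted by Benjamini-Hochberg and called under 0.05. The difference between compartments combined the standard errors and degrees of freedom of both fits, taken as independent. The fit was tested on simulated data. Positions and lengths came from GENCODE vM21 and promoters from RefSeq GRCm38.p6. BLAST 2.17.0 served to find copies, matplotlib 3.10.9 drew the figures, and SciPy 1.17.1 gave the exact tests, all under Python 3.11.15 with pandas 2.3.3. Transcripts of other genes with at least 97% identity over 150 bases were found for Bcl11a (4930538E20Rik), Runx2 (Runx2os1) and Lair1 (Vmn2r86). A single promoter per symbol was used.

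The members and lists were chosen with earlier results of these data known, and the gene lists were written from general knowledge. Named genes were the members, up to 5 genes called per list, compartment and direction, the 2 with the smallest p in a list with none, a few defining genes, and the 3 most like Siglech in stroma and Tcf4 in tumor cells among genes with a mean of at least 50. For lists of other cell types mostly counts are given. A member with a mean of 10 or less was called near 0, on the scale of its own compartment. Within a compartment, WT and IL-6 KO libraries of the same number did not deviate together. A pairing of stroma with tumor libraries was not tested. The alternatives tried were other pseudocounts, filters and scalings, array weights, a replicate block and leaving out each library.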

Additional observations from a re-analysis of the deposited data

Results flagged for a closer look

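Of 26 groups of 4 libraries checked for a library far from the others, 2 had one, both for Spib in the stroma. In WT stroma, replicate 3 had 10.7 normalized counts where the others had 100.2 to 118. In IL-6 KO stroma, replicate 2 had 109 where the others had 8.48 to 22.6. Chance gives such a gap in about 1 of 20 groups. The cause was not tested.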

How the results depend on the processing

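Of 270 alternative values for the members, 260 kept their direction and side of the threshold, 1 moved past it and 9 reversed, and all reversals were of differences that did not pass. Tcf4 in stroma was at a log2 fold change of -0.046 after quantile normalization and -0.14 with array weights, and ran from -0.42 to 0.29 on leaving out each library. Lair1 in stroma was 0.063 with array weights and ran from -1.21 to 0.17, Spib in tumor cells was 0.0038 with array weights and ran from -0.078 to 0.0046, and the tumor minus stroma difference of Tcf4 ran from -0.52 to 0.19. Quantile normalization gave 2 called members in tumor cells, Tcf4 (-0.29) beside Bcl11a. Bcl11a in tumor cells was called in all 17 settings, from -0.55 to -0.42. Siglech in stroma was not called in any of 16 settings (-2.47 to -1.38) and was not tested at a mean over 50.

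Over all genes, stroma calls were 4 with array weights and 1 to 3 without 1 library, beside 1. Tumor calls were 1569 (without IL-6 KO replicate 4) to 3327 (without IL-6 KO replicate 2) on leaving out each library and 4153 with array weights, beside 2870. Calls of a difference between compartments were 2 at a pseudocount of 5, 5 with the replicate block and 1 to 9 without 1 library, beside 1. Same-numbered WT and IL-6 KO libraries correlated in their deviations at -0.03 to 0.13 in stroma and at or below 0 in tumor cells. In both compartments, 0 WT libraries correlated best with the IL-6 KO library of their own number. With the replicate block, tumor calls were 2230, Bcl11a in tumor cells had an adjusted p of 0.0220 and Siglech in stroma of 0.511 (limma), and no member's call changed. The depth is unknown, which limits the members at low counts: Ly6d, Lair1 and tumor Runx2.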
